A study of Homo sapiens with 4 samples.

Results

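The retinoid receptors and the genes that handle their ligand were examined in cells labelled NB4 with and without knockdown of LDB1, a cofactor that binds LIM domain proteins and joins transcription factors into one complex. The members, chosen by name with earlier results of these data known, were the retinoic acid receptors RARA, RARB and RARG, the retinoid X receptors RXRA and RXRB, the retinoic acid binding proteins CRABP1 and CRABP2, the retinaldehyde reductase DHRS3 and the retinoic acid hydroxylase CYP26B1. Of these 9 genes, 7 were among the 28412 genes of the expression table. CRABP1 and CYP26B1 were not analysed here.

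NB4 is a human acute promyelocytic leukemia line known for its fusion of PML to RARA. RNA-seq was performed on 2 libraries of cells carrying the control vector sh-NC and 2 libraries of cells carrying a short hairpin vector against LDB1 (sh-LDB1). Both groups were infected with lentivirus and selected with puromycin, and no retinoid is named among the treatments of either group. The labels name neither the hairpin that was sequenced nor separate cultures behind the replicates, so the p-values measure the spread between these libraries only, which may be technical.

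In this pathway, retinol is oxidised to retinaldehyde and then to retinoic acid. DHRS3 turns retinaldehyde back into retinol, the CRABP proteins carry retinoic acid within the cell, and CYP26 enzymes break it down. A RAR bound to an RXR sits on retinoic acid response elements, holds corepressors in the absence of ligand and exchanges them for coactivators once ligand binds. In acute promyelocytic leukemia the PML-RARA fusion keeps such genes silent, and retinoic acid at drug doses is the classical differentiation therapy. Levels are given in FPKM, fragments per kilobase of transcript per unit of depth, which scales a level for gene length. A gene-level value cannot separate normal RARA or PML transcripts from the fusion transcript.

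The best known retinoic acid response element lies in a promoter of RARB itself, and it is shown here because RARB was the lowest receptor in every library. The element is a pair of 6-base half-sites in direct repeat with 5 bases between them. Among the 18 RefSeq promoter windows of the 9 members, each of 300 bases, this one window held such a repeat (the DR5 element). The sequence, from the RefSeq table on GRCh38.p14, lies at chr3:25428013-25428312 on the plus strand, and the capitals mark the element, which starts at position -53 from the start site.
RARB promoter: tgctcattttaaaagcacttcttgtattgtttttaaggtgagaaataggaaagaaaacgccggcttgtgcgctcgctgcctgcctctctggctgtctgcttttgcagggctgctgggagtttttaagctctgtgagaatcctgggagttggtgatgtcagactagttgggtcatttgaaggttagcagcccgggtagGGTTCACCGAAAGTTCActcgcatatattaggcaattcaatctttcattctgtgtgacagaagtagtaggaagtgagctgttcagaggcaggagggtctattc
The DR5 element was found on either strand in 31 of 35116 promoter windows, or 0.0883%. These matches describe letters only, and RARB has other start sites that the gene-level values do not separate.

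CRABP2, the member with the widest change, is shown for comparison. Its window lies at chr1:156705735-156706034 on the minus strand and held no DR5 element. The capitals mark, on the opposite strand, the letters CAGATG at position -76 and a GATA motif at position 26.
CRABP2 promoter: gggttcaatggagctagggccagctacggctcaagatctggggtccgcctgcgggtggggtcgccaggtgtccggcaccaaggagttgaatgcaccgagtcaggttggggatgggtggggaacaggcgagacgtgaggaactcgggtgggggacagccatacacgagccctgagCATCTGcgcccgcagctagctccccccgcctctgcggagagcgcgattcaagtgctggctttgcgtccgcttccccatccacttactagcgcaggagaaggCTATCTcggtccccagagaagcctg
LDB1 is known to join GATA factors and E-box binding proteins, which is why those motifs were searched. A GATA motif, spelled AGATAA or AGATAG with either A or T as its first base, was present in 8769 of the 35116 promoter windows and in 2 of the 18 windows of the members. CAGATG was present in 14.7% of all windows and in 4 of the 18. The wider E-box CANNTG, which contains CAGATG, was present in 68.7% of all windows and in 10 of the 18. The half-site AGGTCA, which the DR5 element can contain, was present in 13.8% of all windows and in 3 of the 18. Direct repeats spaced as DR1 or DR2 elements were present in 46 and 14 of all windows and in 0 of the 18. The related half-site AGTTCA was present in 10.4% of all windows and in 2 of the 18.

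The depth by which FPKM was scaled, as implied by the values, ran from 14746656 to 16182674 reads per library. The reads recovered from the values summed to 18867281 and 17304977 with sh-NC and to 17193273 and 16152886 with sh-LDB1. These sums exceeded the scaling depth in every library, by more with sh-NC than with sh-LDB1, so small changes depend on the scaling. LDB1 itself was measured at 135.1 and 120.1 FPKM with sh-NC, against 10.25 and 9.475 FPKM with sh-LDB1, so 7.73% of its level was left. The log2 fold change of LDB1 was -3.56 (SE 0.0765, limma with Benjamini-Hochberg adjusted p = 6.93e-05). Marker genes of other states moved with the groups. The summed level of the 10 erythroid markers, which include near-identical globin copies, was 3950 and 4100 FPKM with sh-NC and 378 and 342 FPKM with sh-LDB1. All 10 were called lower by more than 2-fold, beside 10.3% of all tested genes. The 7 promyelocyte markers with a value summed to 11.8 and 10.8 FPKM with sh-NC and to 32.4 and 29.6 FPKM with sh-LDB1. Of the 5 of them that were tested, 3 were higher and 0 were lower, beside 29.9% and 37.4% of all tested genes at an adjusted p below 0.05. LYZ, lysozyme, PRTN3, proteinase 3, and AZU1, azurocidin, were the 3 that were higher. LYZ alone was at 5.85 and 5.613 FPKM with sh-NC and at 19.32 and 19.14 FPKM with sh-LDB1. CEBPE, not called, was at 1.551 and 1.265 FPKM with sh-NC and at 0.9238 and 0.3402 FPKM with sh-LDB1. The median of the 7 markers was 1.29 and 1.18 FPKM with sh-NC and 1.22 and 1.45 FPKM with sh-LDB1. ELANE, the gene of neutrophil elastase, was at 0 in 3 of the 4 libraries, and the promyelocyte markers MPO, CTSG and DEFA4 were not analysed here. In the sh-NC libraries the markers of the labelled promyelocytic type were thus low and the erythroid markers high, which goes against the label, so the cells are called NB4 here as labelled only. The 5 monocyte markers with a value summed to less than 1 FPKM in every library, from 0.264 to 0.842 FPKM. Of these, VCAN was at 0 in both sh-NC libraries, CD68 at 0 in both sh-LDB1 libraries and FCGR1A at 0 in 1 sh-NC library. The 4 megakaryocyte markers with a value summed to between 2.86 and 3.91 FPKM, with PF4 at 0 in 3 libraries, PPBP at 0 in 2 and 0 of 2 tested markers called. The part of the shifted markers in the results that follow was not tested, and a change in the mix of cell states cannot be told apart from a change of RNA per cell.

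To ask how retinoid receptors and handling genes differed after LDB1 knockdown, the 6 members that averaged 1 FPKM or more were tested among 13300 genes. Of these, RARA, RARG, RXRB and CRABP2 were higher with sh-LDB1, DHRS3 was lower, and RXRA did not pass the test. The direction of RXRB turns if reads of an overlapping gene are taken off, as given with its values. RARB was too low to be tested, and CRABP2 reached the filter only through its sh-LDB1 libraries, so its place among the tested members depends on its rise. Without CRABP2, 3 of 5 were higher and the median log2 fold change was 0.27. At an adjusted p below 0.05, 67.4% of all tested genes were called, with 29.9% higher and 37.4% lower, so 5 called members of 6 is a share to be read against that wide background. Only CRABP2 also passed a fold change of 2, against 19.8% of all tested genes in either direction, with 9.5% higher and 10.3% lower. For 5 of the 6 members every sh-LDB1 library lay on one side of both sh-NC libraries, against 84.6% of all tested genes. The median log2 fold change of the 6 members was 0.46, and that of all tested genes was -0.08.

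**Figure D1:**
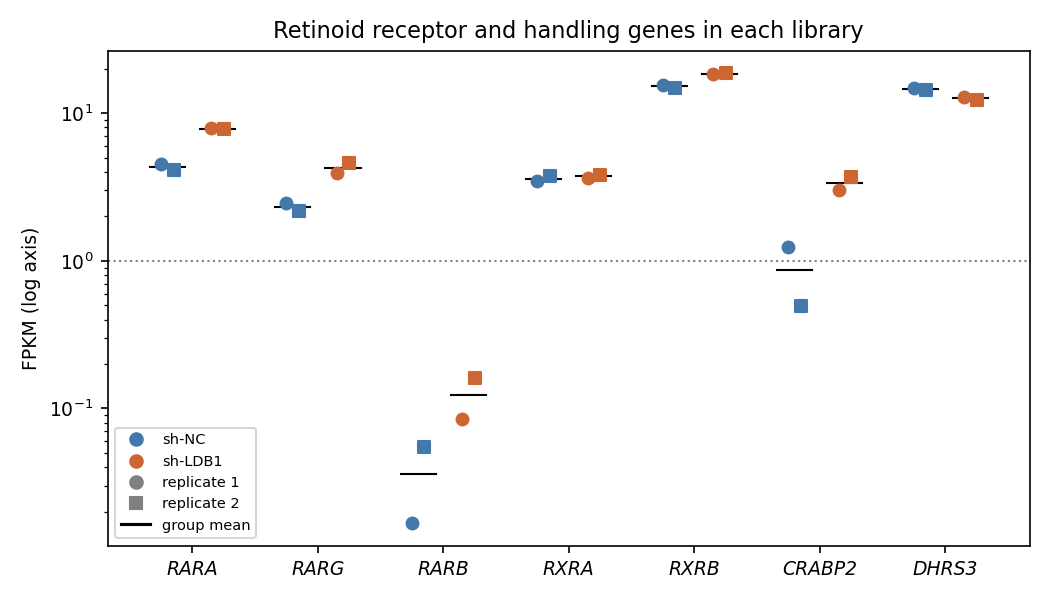
FPKM of the 7 members with a value, on a log axis, with 1 point per library and a line at each group's mean, for sh-NC and sh-LDB1. RXRB and DHRS3 were the most abundant in both groups, as deposited, and RARB the least, and only RXRA has overlapping groups.

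Among the retinoic acid receptors, RARA was the most abundant. RARA (ENSG00000131759, chr17:40309180-40357643, plus strand) was measured at 4.493 and 4.142 FPKM with sh-NC and at 7.929 and 7.781 FPKM with sh-LDB1. Both sh-LDB1 libraries lay well above both sh-NC libraries. The mean rose from 4.318 ± 0.248 to 7.855 ± 0.105 FPKM (SD, n = 2), a ratio of 1.82. On the log2(FPKM + 1) scale, which understates changes of low genes, the fold change was 0.74 (95% confidence interval 0.56 to 0.91, SE 0.0641, limma adjusted p = 0.00081). The values rest on 289 to 601 reads per library. Some exon bases of RARA are shared with RARA-AS1 on the other strand, measured at 1.14 and 1.14 FPKM with sh-NC and 2.2 and 2.55 FPKM with sh-LDB1. At those levels the 556 shared bases would hold at most 21 reads in a library. The overlapping gene ENSG00000278918 shares 291 bases and would hold 1 read in each.

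RARG (ENSG00000172819, chr12:53210567-53232980, minus strand), the RAR isotype known mostly from skin and from blood stem cells, was at 2.459 and 2.182 FPKM with sh-NC. It was at 3.908 and 4.576 FPKM with sh-LDB1, so the groups did not overlap. The mean rose from 2.321 ± 0.195 to 4.242 ± 0.472 FPKM (SD, n = 2), a ratio of 1.83. The log2 fold change was 0.66 (95% confidence interval 0.38 to 0.93, SE 0.103, limma adjusted p = 0.00493). RARA and RARG kept their calls in each refit without 1 library, and both lost them only when limma's test was set against a change of 1.5-fold (adjusted p = 0.125 for RARA and 0.672 for RARG, with ranges over all alternatives of 4.48e-06 to 0.125 and 8.56e-05 to 0.672).

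RARB (ENSG00000077092, chr3:24687887-25597932, plus strand), whose own promoter carries the element printed above, was close to the detection limit. It was at 0.0167 and 0.055 FPKM with sh-NC and at 0.0844 and 0.161 FPKM with sh-LDB1. These values stand for 3, 9, 15 and 27 reads in that order. The sh-LDB1 libraries were the higher pair, but the counting intervals (95%, exact Poisson, counting error only) overlapped, with 0.0252 to 0.104 FPKM in sh-NC replicate 2 and 0.0472 to 0.139 FPKM in sh-LDB1 replicate 1. The mean was 0.0359 ± 0.0271 FPKM with sh-NC and 0.123 ± 0.0541 FPKM with sh-LDB1 (SD, n = 2).

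The makeup of the RAR pool was similar in both groups. The summed level of RARA, RARB and RARG was 6.97 and 6.38 FPKM with sh-NC and 11.9 and 12.5 FPKM with sh-LDB1. RARA took 64.5% and 64.9% of that sum with sh-NC and 66.5% and 62.2% with sh-LDB1, so the groups overlapped. RARG took between 32.8% and 36.6%, and RARB at most 1.29%. An exact two-sided permutation test of 2 libraries against 2 cannot go below p = 0.333, which the RAR sum reached.

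Among the retinoid X receptors, the shared partners of RAR and of several other nuclear receptors, RXRB was the more abundant in the deposited values. RXRB (ENSG00000204231, chr6:33193588-33200665, minus strand) was at 15.54 and 14.88 FPKM with sh-NC and at 18.45 and 18.61 FPKM with sh-LDB1. The groups did not overlap, and the difference was small. The mean rose from 15.21 ± 0.471 to 18.53 ± 0.112 FPKM (SD, n = 2), a ratio of 1.22 and a log2 fold change of 0.27 (95% confidence interval 0.14 to 0.40, SE 0.0474, limma adjusted p = 0.00723). The limma adjusted p was 0.0503 without sh-LDB1 replicate 1 and 0.0559 without sh-LDB1 replicate 2, within a range over all alternatives of 0.00178 to 1.0.

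The value of RXRB is uncertain for a further reason. SLC39A7, a zinc transporter gene on the opposite strand, shares 361 of the 3897 exon bases of RXRB, with 0 shared between the canonical transcripts. SLC39A7 was at 72.6 and 60.6 FPKM with sh-NC and at 172 and 166 FPKM with sh-LDB1. At those levels the shared bases would hold 424, 323, 996 and 909 reads, beside 986, 860, 1159 and 1104 reads of RXRB in the same order. The use of strand in counting is not given in the sources used here, so how many of them were counted for RXRB is unknown. With all of them taken off, an estimate added after seeing the data, RXRB would be at 8.86 and 9.29 FPKM with sh-NC and at 2.6 and 3.29 FPKM with sh-LDB1. Its log2 difference would then be -1.36, so the direction of RXRB rests on how these bases were counted.

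RXRA (ENSG00000186350, chr9:134317098-134440585, plus strand) was at 3.446 and 3.751 FPKM with sh-NC and at 3.633 and 3.816 FPKM with sh-LDB1. The groups overlapped. The mean was 3.598 ± 0.216 and 3.724 ± 0.13 FPKM (SD, n = 2), and the log2 fold change was 0.04 (95% confidence interval -0.16 to 0.24, SE 0.076, limma adjusted p = 0.672). The interval leaves room for a small change in either direction, and the estimate was -0.01 without sh-NC replicate 1.

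The balance of the receptor families was then compared. The ratio of summed RXRA and RXRB to summed RAR was 2.72 and 2.92 with sh-NC and 1.85 and 1.79 with sh-LDB1. The groups did not overlap, at the smallest p that the exact permutation test allows (0.333). RXRB exceeded RXRA by 4.51 and 3.97 times with sh-NC and by 5.08 and 4.88 times with sh-LDB1. The sizes of all these ratios rest on the RXRB values as deposited. With all possible SLC39A7 reads taken off, the ratio of RXR to RAR would still be lower with sh-LDB1. The ratio of RXRB to RXRA would then be lower with sh-LDB1 instead of higher.

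CRABP2 (ENSG00000143320, chr1:156699606-156705816, minus strand), which delivers retinoic acid to RAR in the nucleus, was at 1.236 and 0.4932 FPKM with sh-NC and at 3.007 and 3.665 FPKM with sh-LDB1. The sh-LDB1 libraries were both above the sh-NC libraries, which themselves differed widely. The mean rose from 0.8645 ± 0.525 to 3.336 ± 0.465 FPKM (SD, n = 2), a ratio of 3.86. The log2(FPKM + 1) fold change was 1.24 (95% confidence interval 0.63 to 1.86, SE 0.231, limma adjusted p = 0.00863). The libraries held 22, 8, 53 and 61 reads, and the exact Poisson intervals were 0.775 to 1.87 and 0.213 to 0.972 FPKM with sh-NC, against 2.25 to 3.93 and 2.8 to 4.71 FPKM with sh-LDB1. These intervals overlapped within the groups and not between them. The adjusted p was 0.0534 without sh-LDB1 replicate 2, within a range over all alternatives of 0.00108 to 0.08. Its pattern over the 4 libraries was most like that of C19orf71, HILPDA and MYDGF among genes of at least 5 FPKM, at root mean square distances of 0.062, 0.083 and 0.09 log2 units.

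DHRS3 (ENSG00000162496, chr1:12567910-12618210, minus strand), the reductase that draws retinaldehyde away from retinoic acid synthesis, was the only member lower with sh-LDB1. It was at 14.9 and 14.3 FPKM with sh-NC and at 12.85 and 12.3 FPKM with sh-LDB1. The groups did not overlap, though the gap was narrow. The mean fell from 14.6 ± 0.427 to 12.57 ± 0.389 FPKM (SD, n = 2), to 86.1% of the sh-NC level. The log2 fold change was -0.20 (95% confidence interval -0.34 to -0.06, SE 0.0522, limma adjusted p = 0.0252). This call was lost under 7 of 15 alternatives. With equal summed FPKM, which moved the median of all genes by 0.15, the log2 fold change was -0.04 (adjusted p = 0.529). With median-of-ratios scaling it was -0.11 (adjusted p = 0.133). The adjusted p was 0.0808 without sh-NC replicate 1, 0.0774 without sh-LDB1 replicate 1 and 0.14 without sh-LDB1 replicate 2, and the range over all alternatives was 0.0252 to 1.0. The genes most like DHRS3 in pattern were TMEM63B, AL592183.1 and COX7A2, at distances of 0.0076, 0.0078 and 0.012 log2 units over the 4 libraries.

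**Figure D2:**
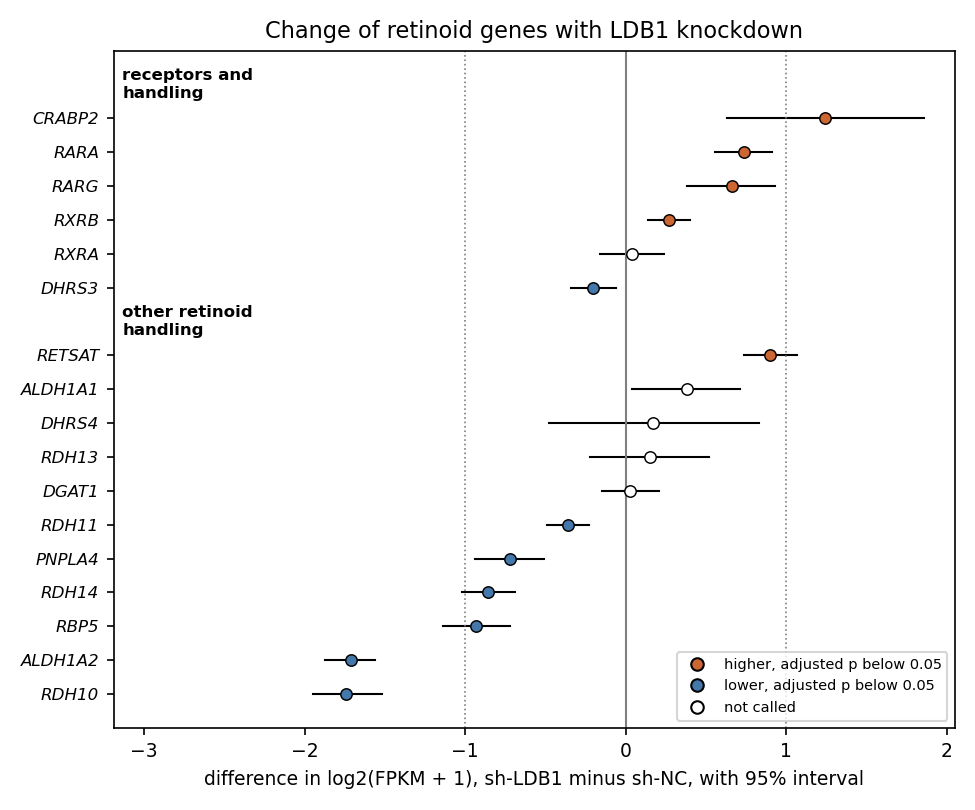
Log2 fold change of sh-LDB1 over sh-NC on the log2(FPKM + 1) scale for the 6 tested members, with 95% confidence intervals. The 11 tested genes listed for other retinoid handling are drawn below them. Among the members, the interval of CRABP2, 0.63 to 1.86, is the widest, and that of RXRA, -0.16 to 0.24, holds 0.

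In order of mean level, the sh-NC libraries held RXRB at 15.2 FPKM, DHRS3 at 14.6, RARA at 4.32, RXRA at 3.6, RARG at 2.32, CRABP2 at 0.865 and RARB at 0.0359 FPKM. RXRB and DHRS3 overlapped in this order, and no other neighbours did. With sh-LDB1 the order was RXRB at 18.5 FPKM, DHRS3 at 12.6, RARA at 7.85, RARG at 4.24, RXRA at 3.72, CRABP2 at 3.34 and RARB at 0.123 FPKM. RARG thus stood above RXRA with sh-LDB1 and below it with sh-NC, and CRABP2 reached levels that overlapped RXRA. The place of RXRB holds for the deposited values only, since with all possible SLC39A7 reads taken off it would stand below DHRS3 with sh-NC, and below RXRA with sh-LDB1.

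Other genes of retinoid supply were called in both directions. Of the 39 genes listed for retinoid uptake, storage, oxidation and clearance, 29 had a value and 11 were tested. Of these, 6 were lower, 1 was higher and 4 were not called, beside 37.4% lower and 29.9% higher among all tested genes. The median log2 fold change of the 11 genes was -0.36. The lower genes included one for each of the oxidation steps towards retinoic acid. RDH10, which oxidises retinol, was at 7.58 and 7.04 FPKM with sh-NC and 1.42 and 1.57 FPKM with sh-LDB1 (log2 fold change -1.74, SE 0.0797, limma adjusted p = 0.000167). ALDH1A2, which oxidises retinaldehyde to retinoic acid, was at 12.7 and 12.2 FPKM with sh-NC and 3.18 and 3.05 FPKM with sh-LDB1 (log2 fold change -1.71, SE 0.0579, limma adjusted p = 0.000108). These were the 2 genes of the list past 2-fold on the log2(FPKM + 1) scale, where 10.3% of all tested genes were lower past 2-fold. RDH14, a further retinol dehydrogenase, fell by 0.86 on the log2 scale, and RBP5, a cellular retinol binding protein, fell by 0.93. RETSAT, a retinol saturase, rose by 0.90, from 6.08 to 12.2 FPKM. ALDH1A1, the other main retinaldehyde dehydrogenase of blood cells, was named after its values were seen and was at 1.97 and 2.4 FPKM with sh-NC and 2.83 and 3.46 FPKM with sh-LDB1 (limma adjusted p = 0.0531). CYP26A1, the retinoic acid hydroxylase related to CYP26B1 and likewise named after its values were seen, was under 0.5 FPKM in all 4 libraries, from 0.0456 to 0.478 FPKM.

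Genes known to respond to retinoic acid in myeloid cells were mostly higher. Of 23 listed, 20 had a value and 13 were tested. Of these, 10 were higher, 1 was lower and 2 were not called, with 7 of the higher genes past 2-fold. Among all tested genes, 29.9% were higher, 37.4% lower and 9.5% higher past 2-fold. The median log2 fold change of the 13 genes was 1.84. ITGAM and ITGAX, the integrin chains CD11b and CD11c, reached the filter only through their sh-LDB1 libraries, and without them 8 of 11 genes were higher, 5 were past 2-fold and the median was 0.89. ITGAM, named for this reason, was at 0.0217 and 0.0596 FPKM (2 and 5 reads) with sh-NC and at 4.89 and 4.94 FPKM with sh-LDB1. TNFAIP2, first found among genes induced by TNF, was at 7.57 and 8.08 FPKM with sh-NC and 62.7 and 64.6 FPKM with sh-LDB1 (log2 fold change 2.87, limma adjusted p = 6.8e-05). CEBPB, a transcription factor of granulocytic differentiation, was at 19.9 and 20.8 FPKM with sh-NC and 83.5 and 82.6 FPKM with sh-LDB1 (log2 fold change 1.98). In both genes the groups lay far apart. ITGAX was at 0.0437 and 0.0863 FPKM (5 and 9 reads) with sh-NC and at 6.22 and 6.11 FPKM with sh-LDB1. ICAM1, an adhesion receptor, rose by 1.84 on the log2 scale, and ID1, an inhibitor of basic helix-loop-helix factors, rose by 2.60. TGM2, transglutaminase 2, named because it was the 1 gene called lower, was at 19 and 18.6 FPKM with sh-NC and 15.3 and 15.5 FPKM with sh-LDB1 (log2 fold change -0.27). The 2 genes not called, CEBPE and NRIP1, named after their values were seen, also had lower values with sh-LDB1. Their log2 fold changes were -0.58 (limma adjusted p = 0.081) and -0.23 (limma adjusted p = 0.143). RARB and CYP26A1, which are also classical retinoic acid targets, stayed under the filter. Many of these genes also respond to other signals. In the same libraries 3 of 5 tested promyelocyte markers were higher and the erythroid markers fell. The part of these markers in the counts was not tested.

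**Figure D3:**
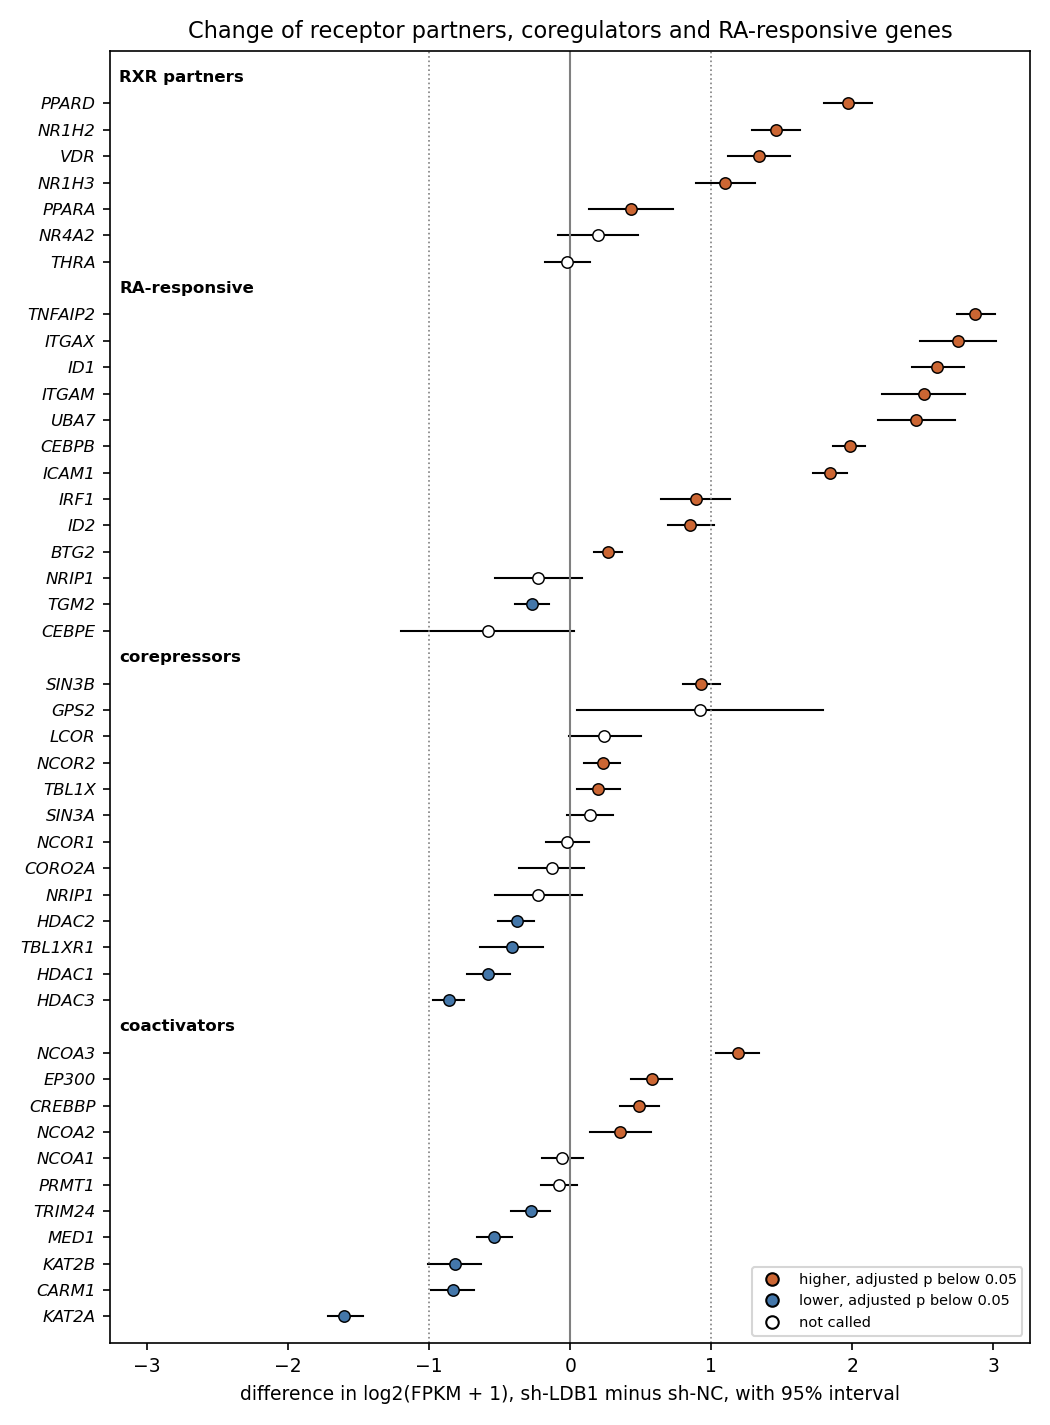
Log2 fold change of sh-LDB1 over sh-NC for each tested gene of the RXR partners, the retinoic acid responsive genes, the corepressors and the coactivators. Each gene has 1 point with its confidence interval, and the group medians are not drawn. The retinoic acid responsive genes have a median of 1.84 and the RXR partners 1.1, against -0.02 for the corepressors and -0.08 for the coactivators.

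The partners that share RXR were also mostly higher. Of 13 listed nuclear receptors, 11 had a value and 7 were tested, with 5 higher, 0 lower and 2 not called, and with 4 past 2-fold. Among all tested genes, 29.9% were higher, 37.4% lower and 9.5% higher past 2-fold. The lower genes also numbered 0 at an unadjusted p below 0.05 and with voom, an alternative on recovered reads. PPARD, a fatty acid receptor, was at 7.1 and 6.4 FPKM with sh-NC and 29.1 and 29.6 FPKM with sh-LDB1 (log2 fold change 1.97, limma adjusted p = 9.8e-05). NR1H2, an oxysterol receptor also called LXR beta, was at 11.6 and 10.5 FPKM with sh-NC and 32.3 and 31.9 FPKM with sh-LDB1. VDR, the vitamin D receptor, was at 1.56 and 1.42 FPKM with sh-NC and 5.15 and 5.44 FPKM with sh-LDB1. The median log2 fold change of the 7 genes was 1.1. NR1H3, or LXR alpha, rose by 1.10 and PPARA by 0.43.

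Cofactors of the receptors were called in either direction at shares near those of all tested genes, 29.9% higher and 37.4% lower, and nothing is read from their counts. All 13 listed corepressor genes were tested, with 3 higher, 4 lower and 6 not called, a median log2 fold change of -0.02 and 0 past 2-fold. HDAC3, the deacetylase of the NCOR complex, was at 32.9 and 32.1 FPKM with sh-NC and 17.5 and 17.4 FPKM with sh-LDB1 (log2 fold change -0.86, limma adjusted p = 0.000188). SIN3B, a scaffold of deacetylase complexes, was at 10.2 and 9.8 FPKM with sh-NC and 20.1 and 19.7 FPKM with sh-LDB1 (log2 fold change 0.93, limma adjusted p = 0.000209). All 11 listed coactivator genes were tested, with 4 higher, 5 lower and 2 not called, and a median of -0.08, the same as for all tested genes. KAT2A, a histone acetyltransferase, was at 37.0 and 38.2 FPKM with sh-NC and 12.0 and 11.6 FPKM with sh-LDB1 (log2 fold change -1.60). NCOA3, a p160 coactivator, was at 3.14 and 3.15 FPKM with sh-NC and 8.37 and 8.51 FPKM with sh-LDB1 (log2 fold change 1.19). KAT2A and NCOA3 were the 2 coactivator genes past 2-fold on the log2(FPKM + 1) scale. With equal summed FPKM the corepressors called higher numbered 6 instead of 3.

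PML and the other partners that leukemias fuse to RARA were counted together. Of 10 genes, 9 were tested, with 3 higher, 5 lower and 1 not called, and a median log2 fold change of -0.37, beside 29.9% higher and 37.4% lower among all tested genes. PML was at 4.721 and 4.618 FPKM with sh-NC and at 5.878 and 5.529 FPKM with sh-LDB1, a log2 fold change of 0.24 (limma adjusted p = 0.0259). RARA rose by 0.74 on the same scale, and neither value separates the fusion from the normal gene. Given the high erythroid and low promyelocyte markers, the presence of the fusion in these cells was not checked here. STAT5B, a signal transducer, went from 42.1 and 44.2 FPKM to 15.6 and 13.6 FPKM (log2 fold change -1.5) and was the 1 gene of this list past 2-fold, and NPM1, the nucleolar protein nucleophosmin, fell by 0.69.

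**Figure D4:**
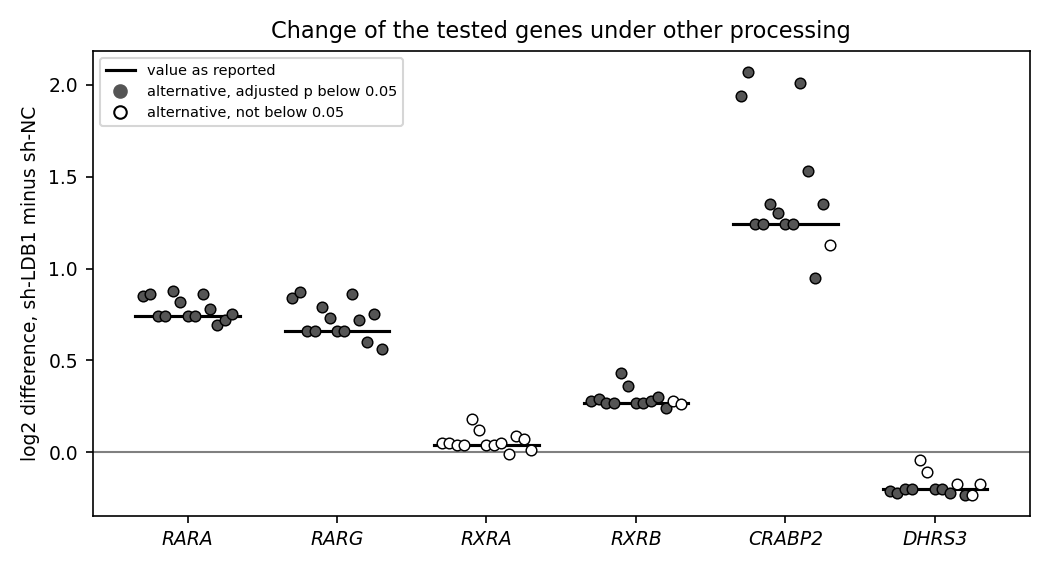
Log2 fold change of sh-LDB1 over sh-NC for the 6 tested members, with a line for the value as reported and 1 point per alternative setting. The stricter adjusted p and the test against 1.5-fold, which leave the fold change as it is, are left out. CRABP2 ranged from 0.95 to 2.07, RARA from 0.69 to 0.88 and DHRS3 from -0.23 to -0.04, and among these settings only RXRA changed sign.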

How the data were processed

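Total RNA of 4 NB4 libraries, 2 labelled sh-NC and 2 labelled sh-LDB1, was sequenced from TruSeq libraries. The authors deposited one table of FPKM with 1 value per gene and library. Per the submitters' processing notes, HISAT2 2.0.5 and hg38 were used. The counting tool, the annotation and the use of strand are not given in the sources used here.

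Groups were taken from the labels. Genes that averaged 1 FPKM or more (13300 of 28412) were compared as log2(FPKM + 1) in R 4.3.3 by limma 3.58.1, using eBayes, a variance trend and no replicate block, with Benjamini-Hochberg adjustment over all tested genes. A gene was called at an adjusted p below 0.05. The count test fixed for a table of counts was not used, since the values were FPKM. Reads behind each value were recovered from the FPKM steps with gene lengths of GENCODE release 44 on GRCh38, and gave whole reads within 0.01 for 98.5% of the annotated genes. They served for counting intervals and for a voom alternative. In simulated data, 152 of 190 changed genes were called in the right direction (63 of 95 changed 2-fold and 89 of 95 changed 4-fold). Of the unchanged genes among 13003, 0.11% were called. The simulated spread was set and not estimated from these libraries. Its changed genes were also far fewer than the 67.4% called here, so these rates do not carry over to these data.

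The members and gene lists were chosen with earlier results of these data known. All members were named, with up to 5 genes of each other list that had the smallest adjusted p, any marker at 0, the 3 genes most alike to the member with the largest rise or fall, overlapping genes, LDB1 and PML. The lists covered retinoid handling, corepressors, coactivators, RXR partners, retinoic acid responsive genes, PML and the other RARA fusion partners, and promyelocyte, erythroid, monocyte and megakaryocyte markers. The 15 alternatives covered the pseudocount, the filter, scaling, the replicate block, the variance trend, voom, a test against 1.5-fold, a stricter adjusted p and leaving out each library. Remaining steps used Python 3.11.15 with pandas 2.3.3 and scipy 1.17.1.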

Additional observations from a re-analysis of the deposited data

How the results depend on the processing

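The directions of RARA, RARG, RXRB, CRABP2 and DHRS3 held under the 15 alternatives listed with the methods. With the reads of SLC39A7 on shared bases taken off, added after seeing the data, RXRB had a log2 difference of -1.36, with no test. RXRA, never called, had a log2 fold change of -0.01 without sh-NC replicate 1. When tested against a change of 1.5-fold, 0 members were called higher and 0 lower, 1 corepressor was higher and 1 lower, 1 coactivator was higher and 2 lower, 0 retinoic acid responsive genes were lower, and 1462 of all genes were higher and 1768 lower instead of 3983 and 4978. The lower members also numbered 0 with equal summed FPKM, with median-of-ratios scaling and at an adjusted p below 0.01, where 1 corepressor was higher. The corepressors called higher numbered 6 with equal summed FPKM, 6 with median-of-ratios scaling and 6 with voom. The retinoid handling genes called higher numbered 2 with a filter at 0.1 FPKM, with both scalings, with the replicate block and with voom. The retinoic acid responsive genes called lower numbered 0 with equal summed FPKM, 2 without the variance trend and 3 with voom. Equal summed FPKM moved the median of all genes by 0.15 on the log2 scale and median-of-ratios scaling by 0.09, and all genes were then called as 4876 higher and 4047 lower with the former.

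Leaving out each library in turn gave 2 to 4 members higher, with 2 without sh-LDB1 replicate 2, and 0 to 1 lower. The retinoid handling list gave 1 to 1 higher and 6 to 6 lower, the corepressors 1 to 3 and 3 to 4, the coactivators 3 to 4 and 4 to 5, the RXR partners 4 to 4 and 0 to 0, the retinoic acid responsive genes 10 to 10 and 1 to 2, and all genes 3140 to 3697 and 4067 to 4561. These refits leave 1 library in an arm, which is assumed to vary like the other group.

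The labels give only replicate numbers, and same-numbered libraries did not deviate together (r = 0.02 across genes, which are not independent). With the replicate block, the 4 higher members and the 1 lower member were called in the same direction as without it, and the counts over all genes were 3890 higher and 4808 lower.

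With 2 libraries per group, changes of the size of DHRS3 and RXRB lay at the limit of what the spread resolved. Depth limited RARB most, with at most 27 reads in a library.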
